A study of Arabidopsis thaliana with 15 samples.

Results

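The comparison described here set RNA captured by the copper-catalysed NAD-seq reaction (CuAAC) after removal of m7G-capped RNA against ordinary mRNA-seq, in seedlings of Arabidopsis thaliana. It was formed from the labels: 3 libraries of m7G-depleted CuAAC capture and 3 mRNA-seq libraries of mock-depleted RNA, 6 of the 15 libraries in the series, sharing replicate numbers 1 to 3. All plants were Col-0, a wild-type laboratory accession, grown for 12 days on 1/2 MS agar with sucrose at 22 °C under 16 h of light and 8 h of dark. Every library came from oligo(dT)-selected RNA. For the captured group, 10 µg of that RNA was treated with an antibody to m7G-RNA and the unbound RNA was kept; the mock group is labelled "Mock antibody" and went through the procedure with the m7G antibody left out. About 3 µg was then diluted to 100 µg with E. coli tRNA for the click reaction and streptavidin pull-down, whereas about 150 ng went directly into an mRNA-seq library. Capture and m7G depletion changed together in this comparison, so their separate shares in any difference cannot be told apart from these 6 libraries alone. The mock-depleted CuAAC libraries and the m7G-depleted libraries of the copper-free reaction (SPAAC) were therefore set beside it. mRNA-seq of m7G-depleted RNA and libraries without the tagging enzyme were not analysed here, so RNA held on the beads without a tag is part of every captured value.

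Most eukaryotic mRNAs begin with an m7G cap, which recruits the translation machinery and shields the transcript. A fraction of transcripts instead carry NAD+, the redox cofactor, as the first nucleotide, put there when RNA polymerase starts a transcript with NAD+ in place of ATP, and hydrolases of the Nudix and DXO families remove it. NAD-seq uses an ADP-ribosyl cyclase to exchange the nicotinamide for an alkyne- or azide-bearing alcohol, attaches biotin by a click reaction and enriches the RNA on streptavidin.

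Library totals ran from 6242770 to 7056230 counts in the captured libraries and from 3806556 to 9097552 in the mRNA libraries. Replicates of both groups differed by more than sampling noise (chi-square per degree of freedom 4.05 to 9.95). Levels below are CPM, counts relative to the TMM-scaled library size. Fold changes are log2 values of m7G-depleted CuAAC over mock mRNA ± SE. That SE is approximate: the size of the fold change divided by the square root of edgeR's quasi-likelihood F. The spread behind it was estimated over all 15 libraries. Calls required both a fold change of 2 or more and a Benjamini-Hochberg adjusted value under 0.05. The verbs rose and fell, and the words higher and lower in counts of genes, refer to such calls. Of 21456 genes tested, 1157 were higher (5.39%) and 2698 were lower (12.6%) in the captured libraries, 18.0% in all, and 9671 passed the adjusted p alone. The median over all tested genes was -0.02. When library totals replaced the TMM factors, that median moved to 0.61 and the counts to 5723 higher and 1067 lower, so every direction below is relative to the bulk of genes, and results that turn on this choice are named.

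The largest movement was in the composition of the libraries. Nuclear protein-coding genes held 91.4, 91.0 and 92.0% of the counts in captured libraries 1, 2 and 3, and 58.2, 65.3 and 57.7% in mRNA libraries 1, 2 and 3. The groups did not overlap, with means of 91.4 ± 0.497% and 60.4 ± 4.25% (SD, n = 3). Nuclear ribosomal RNA went the other way, with 3.53, 3.35 and 3.16% of captured counts and 28.4, 20.5 and 30.0% of mRNA counts. Chloroplast-encoded genes held 1.68, 2.11 and 1.46% of captured counts and 7.81, 8.52 and 6.74% of mRNA counts. Mitochondria-encoded genes held 0.709, 0.793 and 0.641% against 2.68, 2.50 and 2.51%. In each of these classes every captured library lay on one side of every mRNA library. A two-sided exact permutation test gave p = 0.10 for each, the smallest value that 3 against 3 libraries allow. The 10 most counted genes of each library took 15.5 ± 0.130% of captured counts and 37.8 ± 4.89% of mRNA counts (SD, n = 3), and shares are relative to that. The small-subunit rRNA gene AT3G41768 alone held 26.2% of mRNA and 3.33% of captured counts, nearly the whole rRNA share. With the 20 most abundant genes left out, AT3G41768 among them, the difference in rRNA share was -0.0570 percentage points instead of -22.9. The remaining rRNA share was 0.0178% in the captured and 0.0748% in the mRNA libraries. The chloroplast difference was then -10.0 instead of -5.94.

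**Figure D1:**
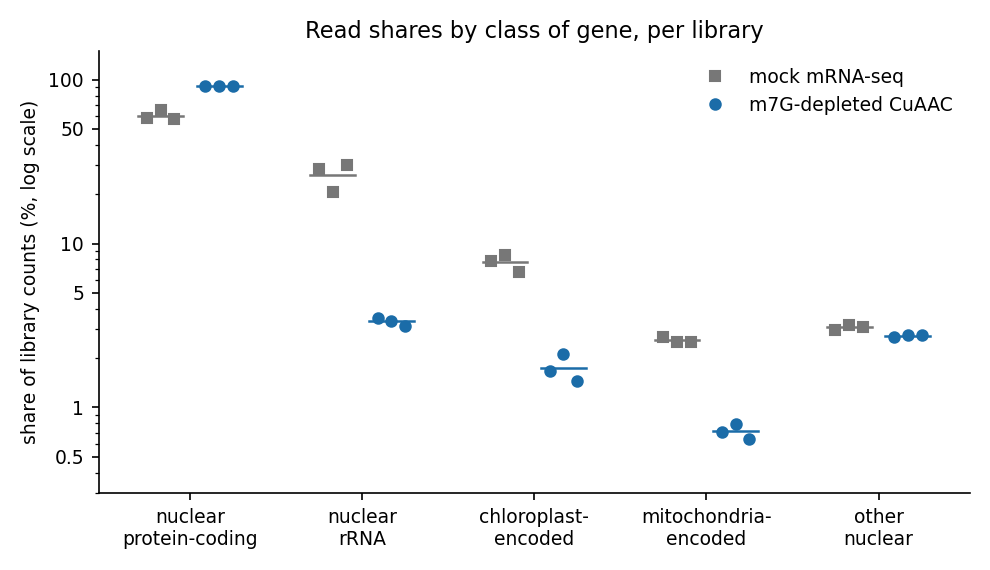
Percent of each library's counts that fell in 5 gene classes, on a log axis; squares are the 3 mock mRNA libraries, circles the 3 m7G-depleted CuAAC libraries and lines the means. Nuclear protein-coding genes averaged 91.4% of captured and 60.4% of mRNA counts, while the rRNA, chloroplast and mitochondrial points of the captured libraries lie below all mRNA points.

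**Figure D2:**
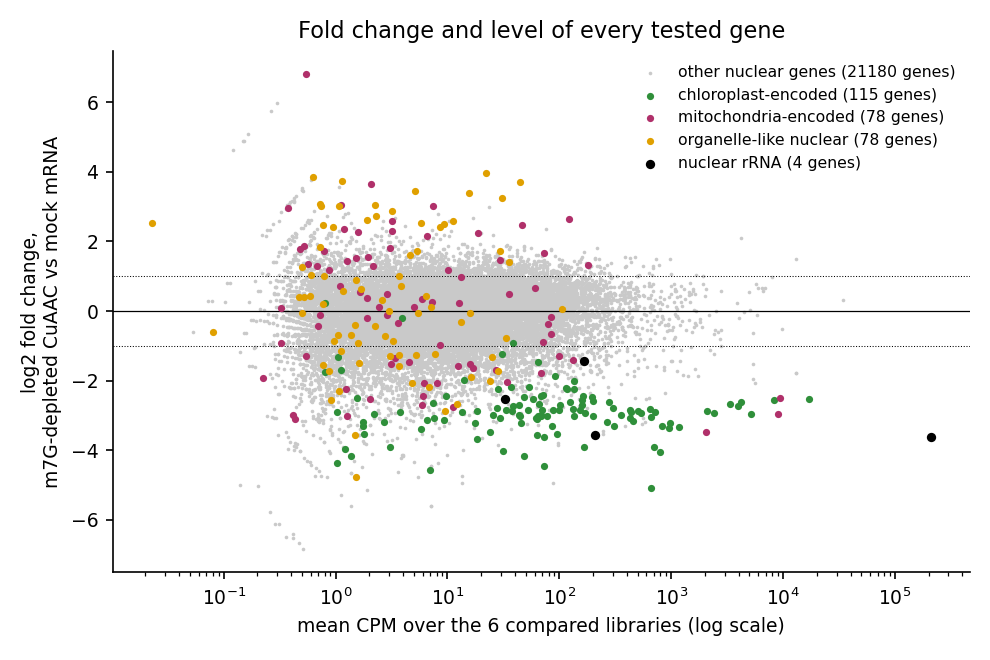
Log2 fold change of m7G-depleted CuAAC over mock mRNA (vertical) against the mean CPM of the 6 libraries (horizontal, log axis), one point per tested gene, coloured by class, with dotted lines at a fold of 2 in each direction. Chloroplast-encoded genes form a band around -2.90, whereas mitochondria-encoded genes spread on both sides of 0.

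Chloroplast-encoded RNA fell as a class. Of 115 tested genes, 109 were lower and 0 higher, and the median was -2.90, with quartiles of -3.19 and -2.60, beside -0.02 for all tested genes. ATCG00630 had 24.8 to 49.3 CPM in the captured libraries and 973 to 1681 CPM in the mRNA libraries. The groups were more than an order of magnitude apart, and the fold change was -5.08 ± 0.55. Among the chloroplast genes of at least 10 CPM, ATCG00450 (-4.45 ± 0.29) and ATCG00240 (-4.16 ± 0.21) came next, and those nearest to 0 were ATCG00650, at 20.7 to 33.7 CPM against 45.7 to 56.9 CPM, which was not called (-0.91 ± 0.32), and ATCG00610 (-1.22 ± 0.26). With library totals 107 were lower and 0 higher, with a median of -2.28. The files and the reference annotation used here give these chloroplast and mitochondrial identifiers no gene names, so they are described by identifier.

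Mitochondria-encoded RNA did not move as a class. Of its 78 tested genes 22 were higher and 24 lower in the captured libraries, with a median of 0.11 and quartiles of -1.53 and 1.51, although its share of counts was lower in every captured library. In the mRNA libraries 95.6 to 96.4% of that share lay in 3 genes, and in the captured libraries 76.5 to 78.9%. ATMG01390, ATMG00020 and ATMG00030 together took 2.58, 2.39 and 2.42% of the mRNA libraries' counts and 0.559, 0.613 and 0.490% of the captured libraries' counts. The other 159 mitochondrial genes together took 0.0967, 0.110 and 0.0933% of mRNA counts and 0.149, 0.180 and 0.151% of captured counts. The 3 abundant genes thus took a smaller share, and the remaining genes a larger one, in every captured library than in any mRNA library. ATMG01390 had 2098, 2269 and 1787 CPM in the captured libraries and 17231, 14163 and 16928 CPM in the mRNA libraries (-2.97 ± 0.11). ATMG00030 had 325, 400 and 297 CPM against 3825, 3761 and 3700 CPM (-3.47 ± 0.11), and ATMG01200 changed by -2.75 ± 0.25. The class median was -1.96 for 6 genes of at least 100 CPM, -0.38 for 21 of 10 to 100 CPM and 0.35 for 51 below. These 51 held 15 of the higher and 12 of the lower genes. The members of at least 10 CPM nearest to 0, ATMG00080 (-0.16 ± 0.19) and ATMG00285 (0.22 ± 0.20), had overlapping groups. With library totals the class median was 0.75, with 33 genes higher and 16 lower, and with length and GC content in the model it was 0.80, with 35 higher and 21 lower.

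A block of nuclear genes whose sequence is nearly that of organelle DNA behaved in the same way. Arabidopsis carries a large copy of the mitochondrial genome in chromosome 2, and 78 tested nuclear genes with a near-identical organelle sequence lie on chromosome 2 except 1 on chromosome 3. In the captured libraries 26 of them were higher and 18 lower, with a median of 0.26. With library totals 32 were higher and 10 lower, and with length and GC content in the model 33 and 9, with a median of 0.90 in both. Leaving out single libraries moved the median between -0.07 and 0.48. Of the 78 genes, 62 had a mean under 10 CPM, and 19 of the higher and 13 of the lower ones were among them. AT2G07695, annotated as a cytochrome c oxidase subunit II-like protein, had 41.6, 47.8 and 35.5 CPM in the captured libraries and 2.80, 2.78 and 2.37 CPM in the mRNA libraries. It had the highest fold change among the nuclear protein-coding genes that qualified to be named (3.96 ± 0.20, adjusted p = 2.31e-12). AT2G07638 had 46.5, 64.4 and 54.9 CPM against 5.10, 5.90 and 6.63 CPM (3.25 ± 0.17). AT2G07774 had 86.3, 85.9 and 76.3 CPM against 5.76, 5.55 and 7.58 CPM (3.71 ± 0.16). The last overlaps AT2G07754, a tRNA-Ser gene (3.40 ± 0.19), so those values are not separate. Whether reads of this block came from nuclear or from mitochondrial transcripts cannot be told from gene counts.

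The mock-depleted CuAAC libraries show what these RNAs did under the same chemistry without the antibody. They are compared with the same 3 mRNA libraries, so the comparisons share their controls and their values are given side by side. In mock CuAAC against mRNA, 1093 genes were higher (5.09%) and 2405 lower (11.2%). The chloroplast median there was -5.10 and the mitochondrial median -2.14, with 2 mitochondrial genes higher and 48 lower. The organelle-like nuclear genes had a median of -1.95, with 4 higher and 44 lower, and the nuclear rRNA genes one of -5.50, against -3.04 after depletion. In every one of these classes the median lay lower in mock than in depleted CuAAC.

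The depleted and mock CuAAC libraries were also tested against each other, which leaves the mRNA libraries out of the contrast. There, 1357 genes were higher (6.32%) and 1767 lower (8.24%) after depletion, with a median of 0.01 over all tested genes. Chloroplast genes had a median of 2.18 with quartiles of 1.98 and 2.36, and 101 were higher and 0 lower. Mitochondrial genes had a median of 2.12 with quartiles of 1.93 and 2.46, and 72 were higher and 0 lower. The organelle-like nuclear genes had a median of 2.06, with 63 higher and 0 lower, and the nuclear rRNA genes one of 2.49. The spread within the classes was narrow: the interquartile range was 0.38 for chloroplast, 0.53 for mitochondrial and 0.54 for organelle-like genes, against 0.98 over all tested genes and 3.03 for the same mitochondrial genes in depleted CuAAC against mRNA. Among the 46 chloroplast genes above 100 CPM the interquartile range was 0.25. Genes that stood far above and far below their mRNA level thus differed between depleted and mock capture by nearly the same factor. ATCG01210 (91.3, 89.7 and 93.1 CPM after depletion, and 1011, 463 and 807 CPM in mRNA) fell by 3.06 against mRNA on the log2 scale, and ATCG01080 fell by 3.10. AT2G01010, an 18S rRNA gene near-identical to AT3G41768, changed by -1.44 ± 0.25 against mRNA.

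**Figure D3:**
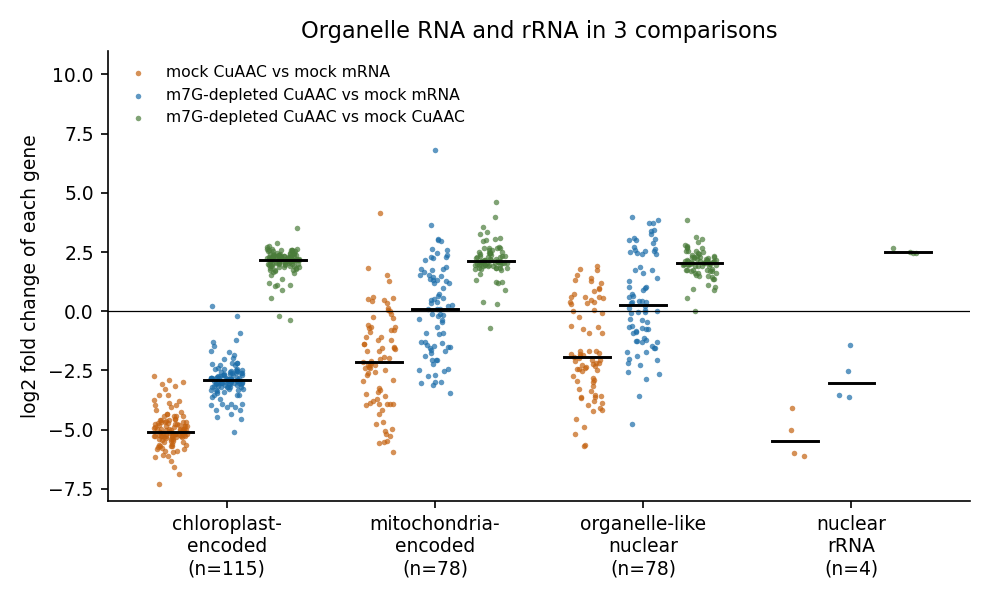
Log2 fold change of every tested gene in the organelle, organelle-like and rRNA classes in mock CuAAC over mRNA, m7G-depleted CuAAC over mRNA and m7G-depleted over mock CuAAC; points are genes and black lines medians. The 3 comparisons share libraries. Chloroplast and mitochondrial medians differ against mRNA (-2.90 and 0.11 after depletion) and nearly coincide between depleted and mock capture (2.18 and 2.12).

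Among nuclear protein-coding genes, transcript length went with the fold change. In the 19662 tested genes outside the organelle-like block, those of 501 to 1000 nt had a median of -0.70, with 1.47% higher and 31.1% lower. Shorter ones, up to 500 nt, had a median of -0.59, with 11.1% higher and 30.2% lower. Genes of 2001 to 3000 nt had a median of 0.16, with 5.85% higher and 6.67% lower, and those over 5000 nt one of -0.18, with 0.980% higher and 11.4% lower. With library totals the median of the 19662 genes moved from -0.01 to 0.63. The side of 0 on which a length class lies can thus turn on the scaling. The medians for the 501 to 1000 nt genes were -0.69, -0.70 and -0.62 in replicate pairs 1, 2 and 3, and those for 2001 to 3000 nt were 0.14, 0.19 and 0.16, so all 3 pairs gave the same order. The median length was 1867 nt for higher genes, 1236 nt for lower genes and 1777 nt for all. Across these genes, Spearman's rho between length and fold change was 0.23, between exon number and fold change 0.25 and between GC content and fold change 0.02; genes are not independent replicates and share libraries, so these are descriptions. Single-exon genes made up 22.9% of the lower genes and 8.60% of the higher genes. Within length classes the order by exon number was not uniform. Among genes of 1001 to 1500 nt, the median was -0.39 for the 749 with 1 exon, -0.17 for the 2397 with 2 to 5, 0.09 for the 1189 with 6 to 10 and 0.11 for the 102 with more. Up to 500 nt it was -0.43 with 1 exon and -0.62 with 2 to 5, from 3001 to 5000 nt it was 0.06, -0.01, 0.06 and 0.12 in the same order of exon number, and over 5000 nt it was -0.24 with 2 to 5, 0.09 with 6 to 10 and -0.22 with more.

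The relation with length had opposite slopes in the mock CuAAC libraries and between depleted and mock CuAAC. The mock CuAAC libraries enter these comparisons on opposite sides, so part of that opposition is built in. In mock CuAAC against mRNA, the median was 0.11 at 501 to 1000 nt, -0.10 at 2001 to 3000 nt and -1.36 over 5000 nt. In depleted against mock CuAAC, it was -0.76, 0.29 and 1.22 in the same classes. Spearman's rho with length was -0.35 and 0.63 in these comparisons. The 69 tested genes of at least 7000 nt show it at its extreme: 60 were lower in mock CuAAC than in mRNA (median -1.81), 56 were higher in depleted than in mock CuAAC (median 1.37), and 0 were higher and 15 lower in depleted CuAAC than in mRNA (median -0.43). With library totals the last median was 0.20, with 2 higher and 3 lower, and after adjustment for length and GC content it was -0.06. AT2G25730, a zinc finger FYVE domain gene, had 69.2, 83.1 and 79.4 CPM after depletion, 74.1, 88.5 and 80.6 CPM in mRNA and a mean of 28.8 CPM in mock CuAAC. Its depleted and mRNA values overlapped (-0.06 ± 0.11), while depleted exceeded mock capture by 1.42. AT2G17930, a FAT domain kinase family gene, had 19.8, 30.9 and 19.6 CPM after depletion, 72.4, 87.1 and 80.1 CPM in mRNA and a mean of 7.29 CPM in mock CuAAC. It fell against mRNA (-1.77 ± 0.22). AT5G40450, annotated as an A-kinase anchor-like protein and overlapping another gene, fell most of the long transcripts, by 3.10 (SE 0.13).

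**Figure D4:**
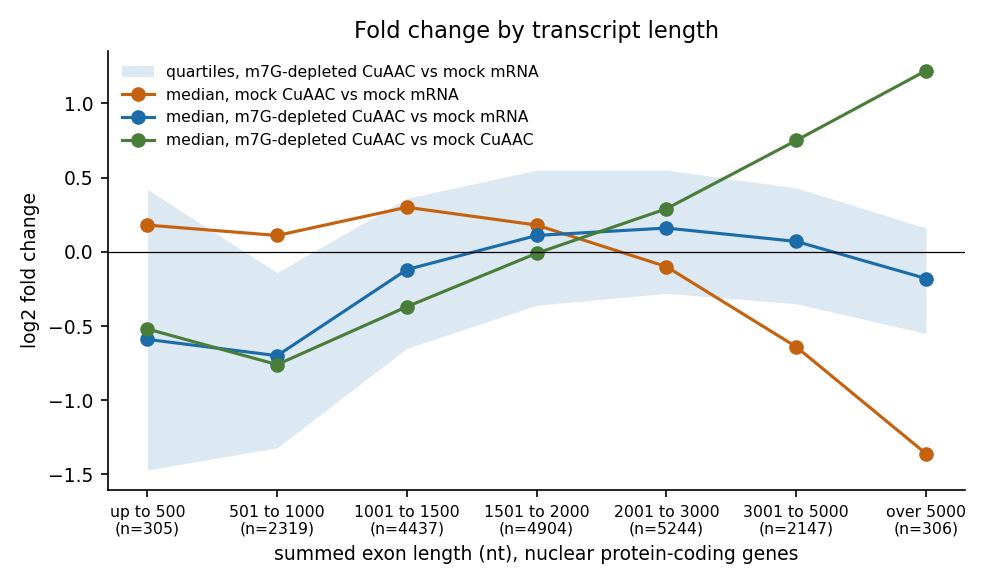
Median log2 fold change of nuclear protein-coding genes in 7 bins of summed exon length (nt), in m7G-depleted CuAAC over mRNA, mock CuAAC over mRNA and m7G-depleted over mock CuAAC; the band spans the quartiles of the first. The comparisons share libraries. With TMM scaling, below 1000 nt the mock medians over mRNA lie above 0 and the depleted ones below. Above 5000 nt mock capture is at -1.36 and depleted capture at -0.18.

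The named genes below were taken by a fixed rule on level, overlap and rank. The sequences around the annotated first base of the 8 genes at the extremes of that rule are shown because an NAD+ cap is added at the first nucleotide and requires an A there. Each runs 5′ to 3′ on the gene's strand in TAIR10.1, from 50 bases before the annotated start to the first 10 bases of the gene, with the annotated first base in capitals. The first 4 genes were higher and the last 4 lower in the captured libraries.
AT2G07695 (chr2:3345879-3345938, plus strand): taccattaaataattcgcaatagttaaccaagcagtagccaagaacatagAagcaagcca
AT2G07638 (chr2:3377113-3377172, plus strand): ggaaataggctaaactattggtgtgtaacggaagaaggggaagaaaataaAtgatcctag
RBCS2B (chr5:15382062-15382121, minus strand): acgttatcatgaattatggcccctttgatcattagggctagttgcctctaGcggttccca
AT1G18340 (chr1:6313922-6313981, minus strand): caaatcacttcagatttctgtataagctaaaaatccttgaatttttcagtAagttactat
AT7SL-1 (chr4:1317449-1317508, plus strand): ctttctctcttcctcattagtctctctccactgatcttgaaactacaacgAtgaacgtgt
AT5G55660 (chr5:22538506-22538565, plus strand): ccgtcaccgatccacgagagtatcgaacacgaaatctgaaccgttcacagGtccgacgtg
AT3G56020 (chr3:20791154-20791213, minus strand): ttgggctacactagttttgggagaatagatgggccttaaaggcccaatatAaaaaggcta
AT1G80930 (chr1:30409759-30409818, minus strand): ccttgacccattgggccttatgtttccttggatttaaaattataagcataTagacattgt

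AT2G07695, AT2G07638 and AT1G18340 among the higher genes and AT7SL-1 and AT3G56020 among the lower ones had an annotated A at position 51; the others had G or T. Over the 19661 tested nuclear protein-coding genes with a start in the annotation, 35.5% began with A, as did 37.5% of the 954 higher and 37.2% of the 2208 lower genes. The median fold change was -0.01, -0.01, -0.00 and -0.01 for genes beginning with A, C, G and T. The hexamer TATAAA on the gene's strand, the core of the TATA box, was in the 50 bases before the start of 10.3% of all these genes, 9.12% of the higher and 12.6% of the lower ones, and on the opposite strand of 5.94% of all; none of the 8 genes shown has it within those 50 bases, and in AT3G56020 it spans the annotated start. Annotated starts can lie bases away from those used in these seedlings.

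The higher nuclear genes were led, after the organelle-like pair, by RBCS2B, a small subunit of Rubisco, the carbon-fixing enzyme. It had 6984, 7270 and 6186 CPM in the captured libraries, 1702, 1574 and 1484 CPM in the mRNA libraries and a mean of 4509 CPM in mock CuAAC. The log2 ratios of replicate pairs 1, 2 and 3 were 2.04, 2.21 and 2.06. All captured values were above all mRNA values. AT1G18340, a subunit of a basal transcription factor complex, had 19.7, 23.0 and 23.3 CPM against 4.77, 7.98 and 5.45 CPM (1.93 ± 0.19). PAP2, a purple acid phosphatase, had 79.5, 75.6 and 70.4 CPM against 20.1, 22.2 and 19.9 CPM (1.87 ± 0.10). LPAT4, an acyltransferase of phospholipid synthesis, varied more, at 45.4, 20.2 and 28.9 CPM against 10.7, 4.16 and 8.53 CPM (1.92 ± 0.39, adjusted p = 0.00160). AT3G11880, a transmembrane protein of unknown function (1.88 ± 0.12), and AT4G35910, of the adenine nucleotide alpha hydrolase-like family (1.86 ± 0.17), complete the 8.

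The lower nuclear genes went further from 0 than the higher ones. AT7SL-1, annotated here as protein-coding and named 7SL RNA1, carries the name of the RNA of the signal recognition particle, which targets ribosomes to the endoplasmic reticulum. It had 4.52, 5.51 and 6.36 CPM in the captured libraries and 154, 180 and 173 CPM in the mRNA libraries (-4.94 ± 0.37), and a mean of 0.492 CPM in mock CuAAC. Its depleted level exceeded its mock level by 3.40 ± 0.62, and it is near-identical to AT4G03350, so reads may be split between them. AT5G55660, a DEK domain chromatin protein, had 1.51, 1.99 and 1.46 CPM against 29.3, 27.8 and 21.1 CPM (-3.99 ± 0.22). AT1G80930, with MIF4G and MA3 domains found in translation and splicing factors, had 6.29, 6.89 and 5.96 CPM against 63.9, 75.6 and 63.7 CPM (-3.40 ± 0.13). A pair of genes for ribosomal protein L41, the smallest protein of the ribosome, was among the 8: AT3G56020 had 2.74, 4.59 and 3.58 CPM against 48.1, 67.3 and 43.4 CPM (-3.85 ± 0.21), and AT3G11120 had 3.97, 5.82 and 5.83 CPM against 36.9, 65.9 and 43.6 CPM (-3.20 ± 0.38). The groups of each of these genes were far apart. AT5G56710, of the L31e family of ribosomal proteins (-3.26 ± 0.23), AT3G23450 (-3.25 ± 0.46) and AT1G74250, a DNAJ heat shock domain protein (-3.22 ± 0.23), complete the 8. Over all classes the lowest included 2 RNA genes of other types, AT1G06457 (-4.93 ± 0.38), which lies within another gene, and AT5G02565 (-4.73 ± 0.37).

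The gene lists that follow were chosen by role, with earlier results of these libraries known, and are described by counts and medians beside 5.39% higher, 12.6% lower and a median of -0.02 over all tested genes. The antenna of photosystem II captures light with proteins of the LHCB1 and LHCB2 type, and 4 of their 8 tested genes were lower and 0 higher (median -1.15). CAB2 had 2023, 2326 and 2043 CPM in the captured libraries and 8612, 8902 and 9530 CPM in the mRNA libraries (-2.08 ± 0.10). CAB3 (-1.96 ± 0.19) and LHB1B2 (-1.78 ± 0.10) fell as well, and so did LHCB2.2 (-1.67). CAB2 and CAB3 are near-identical to CAB1, which was not called, at 36486, 38338 and 38616 CPM against 28002, 28861 and 34754 CPM (0.31 ± 0.11), so a division of reads among the 3 copies may differ from their true levels. LHB1B2 and CAB1 overlap other genes. With library totals the same count of 4 lower genes came out, with a median of -0.53.

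Of the 12 tested genes for minor antenna proteins and the antenna of photosystem I, 1 was higher and 0 lower (median 0.59). LHCA4, a photosystem I antenna protein, had 17719, 19735 and 19984 CPM against 6332, 6707 and 7332 CPM, with log2 ratios of 1.48, 1.56 and 1.45 in the replicate pairs; it overlaps another gene. LHCB5, a minor antenna protein of photosystem II, had 7103, 8463 and 8346 CPM against 4776, 4991 and 5355 CPM and was under the fold threshold. With library totals 7 of the 12 were higher. Of the small subunits of the photosystems themselves, 8 of 24 were lower and 0 higher (median -0.46). PSAK, which docks antenna proteins to photosystem I, had 495, 594 and 604 CPM against 1946, 2041 and 2024 CPM, and a mean of 1821 CPM in mock CuAAC (-1.83 ± 0.09). PSAE-2 (-1.64 ± 0.09) and PSBTN (-1.62 ± 0.10) fell, as did PSBR (2808, 2528 and 2879 CPM against 8229, 6977 and 8507 CPM), PSBY, PSAO, PSAD-1 and PSAL; PSBP-1, of the oxygen-evolving complex, was at 0.56 and not called. PSAD-1 and PSAL, at -1.04 and -1.01, were not called without captured library 1, mRNA library 2 or mRNA library 3 (-0.92 to -0.99). These are short transcripts, and with length and GC content in the model 4 of the 24 were lower with a median of -0.06. With library totals the median turned to 0.16, with 2 higher and 2 lower. In mock CuAAC against mRNA 1 was higher and 0 lower, and in depleted against mock CuAAC 0 were higher and 12 lower.

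Genes of carbon fixation lay on both sides. Of 19 tested, 4 were higher and 2 lower (median 0.59). The number higher was 13 with library totals, 1 with length and GC content in the model, 1 when the fold of 2 was tested itself, and 2 to 5 when single libraries were left out. GAPB, a subunit of plastid glyceraldehyde-3-phosphate dehydrogenase, rose by 1.04, HCEF1, a fructose-1,6-bisphosphatase, by 1.03, and AT3G60750, a transketolase, by 1.00, beside RBCS2B. These 3 lay at the fold threshold: their calls ended in both of those settings, those of GAPB and AT3G60750 also ended without captured library 1 (0.99 for both), and that of AT3G60750 without captured library 2 (0.97). RCA, Rubisco activase, at 0.98, was called without captured library 3 or any single mRNA library (1.02 to 1.03). Another Rubisco small subunit gene, RBCS1A, had 7865, 8169 and 7873 CPM against 11949, 10764 and 11674 CPM, and was not called (-0.52), although its groups did not overlap either. After TMM scaling RBCS2B and RBCS1A thus lay on opposite sides of their mRNA level, while RBCS1B (0.59) and RBCS3B (0.58), uncalled, lay with RBCS2B. The side of RBCS1A turns on that scaling, because library totals moved the median of all tested genes from -0.02 to 0.61. Per kb of transcript, RBCS2B stood at 7287 ± 601 CPM in the captured and 1697 ± 117 in the mRNA libraries, and RBCS1A at 6285 ± 137 and 9040 ± 489 (SD, n = 3). The lower members were CP12-1 and CP12-2, small proteins that hold Calvin cycle enzymes inactive in the dark. CP12-2 had 72.7, 41.6 and 45.8 CPM against 246, 163 and 187 CPM (-1.90 ± 0.29), and CP12-1 changed by -1.68 ± 0.11.

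Of 26 redox genes tested, 2 were higher and 2 lower (median -0.05), a share of 15.4% called, near the 18.0% over all genes. GR, a glutathione reductase, had 384, 474 and 407 CPM against 153, 176 and 155 CPM (1.39 ± 0.11), and GPX1, a glutathione peroxidase, rose by 1.04. The cytosolic thioredoxins TRX5 (-1.56 ± 0.14) and TRX3 (-1.26 ± 0.09) fell. With library totals 7 were higher and 0 lower (median 0.58). Cytosolic ribosomal protein genes, mostly short transcripts, were lower in 10 of 28 and higher in 0 (median -0.56). RPS10B, of the small ribosomal subunit, had 22.0, 19.4 and 21.5 CPM against 128, 135 and 132 CPM and a mean of 44.9 CPM in mock CuAAC (-2.65 ± 0.12). Every captured value was far below every mRNA value. AT2G19730, of the L28e family, changed by -1.85 ± 0.13 and EMB2296, of the L2 family, by -1.68 ± 0.09; the other 7 that fell lay between -1.55 (ATL5) and -1.03 (RPS6). With length and GC content in the model 7 were lower (median -0.20), and with library totals 1 was higher and 3 lower (median 0.08). RPS6 was not called without captured library 1 (-0.94) or mRNA library 2 (-0.91), and RPL3B, at -1.27, not without captured library 1 (-0.95); RP1, at -0.88, was called without captured library 2 (-1.03).

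Of the genes of NAD metabolism and of decapping, which make the cofactor and remove caps, most were not called. The same held for all tested genes, of which 18.0% were called. Of 13 NAD metabolism genes, 1 was higher and 0 lower (median 0.28). The higher one was AO, the aspartate oxidase that begins NAD synthesis (1.16 ± 0.39, adjusted p = 0.0195), a gene of low level. Its call ended with length and GC content in the model (0.94), when the fold of 2 was tested itself, and without captured library 2 (0.95), mRNA library 1 (1.23, adjusted p = 0.0537) or mRNA library 3 (1.07, adjusted p = 0.0665). NADK2, the plastid NAD kinase, had 128, 132 and 111 CPM against 72.6, 66.6 and 56.4 CPM and a mean of 56.5 CPM in mock CuAAC. Its groups did not overlap, and it was just under the fold threshold (0.92 ± 0.10), which it passed without mRNA library 1 (1.04); it overlaps another gene. Of 13 decapping and 5′ decay genes, 0 were called (median -0.09). VCS, the scaffold of the decapping complex, had 135, 156 and 130 CPM against 71.9, 73.2 and 69.4 CPM and a mean of 60.7 CPM in mock CuAAC (0.98 ± 0.10). It was called without captured library 1 or 3 or mRNA library 1 or 2 (1.01 to 1.03), and AT4G17620, at -0.95, without captured library 2 (-1.12) or mRNA library 3 (-1.02), so the count of 0 turned on single libraries. The exonucleases XRN2, XRN3 and XRN4 were at -0.82, -0.28 and 0.40, the decapping enzyme DCP2 at -0.55 and the Nudix hydrolase NUDX19 at -0.31, all uncalled. Between depleted and mock CuAAC, 3 of the 13 were higher, VCS, XRN3 (1.23) and AT1G79090 (1.12). With library totals 5 NAD metabolism genes (median 0.92) and 4 decapping genes (median 0.55) were higher than in mRNA.

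Among the lists with more than 1 tested gene, cold and dehydration had the largest share of lower genes: 10 of 14 were lower and 0 higher (median -1.28). COR47, a dehydrin that protects cells from water loss, had 171, 177 and 176 CPM in the captured libraries and 481, 501 and 542 CPM in the mRNA libraries, and a mean of 453 CPM in mock CuAAC (-1.54 ± 0.08). ERD10, a related dehydrin, had 51.7, 38.4 and 46.9 CPM against 131, 97.5 and 124 CPM (-1.37 ± 0.18). KIN1 fell most (-2.86 ± 0.40), and LTI65, COR15B, LTI30, LTI78, KIN2 and ERD14 fell by 1.52 to 1.02. COR15A, a chloroplast protein induced by cold, had 34.3, 14.5 and 32.6 CPM against 112, 48.9 and 81.7 CPM (-1.59 ± 0.51, adjusted p = 0.0257), with replicate 2 the lowest of both groups. Its call ended without captured library 2 (-1.30, adjusted p = 0.0793), without mRNA library 1 (-1.24, adjusted p = 0.112) and without mRNA library 3 (-1.55, adjusted p = 0.0563). RAB18 (-1.43, adjusted p = 0.0519), P5CS1 (-0.37), COR413-PM1 (-0.27) and DREB1A (1.43, adjusted p = 0.251) were not called. With the replicate block RAB18 (-1.40) and DREB1A (1.30) were called, which gave 1 higher and 11 lower genes. RAB18 was also called without captured library 1 (-1.77) or mRNA library 2 (-1.66), with DESeq2 (-1.40) and with a filter of 5 CPM in 3 libraries (-1.47). Single libraries also ended the calls of COR15B (captured 2 or 3, mRNA 1 or 3), ERD14 (captured 1 or 2, mRNA 3) and LTI30 (mRNA 1), with values of -0.94 to -1.30. Leaving out single libraries left 7 to 11 genes lower, library totals 1 (median -0.63), a test against a fold of 2 itself 2, and length and GC adjustment 7 (median -1.22). In mock CuAAC against mRNA 3 were lower, and in depleted against mock CuAAC 4 were lower.

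In the clock and jasmonate lists 6.67% and 7.69% of genes were called, beside 18.0% over all tested genes. Of 15 clock genes 0 were higher and 1 lower (median 0.23): ELF4, of the evening complex, had 28.3, 17.1 and 18.3 CPM against 65.8, 44.8 and 39.8 CPM and a mean of 60.6 CPM in mock CuAAC (-1.25 ± 0.30). Its call ended without mRNA library 1 (-0.95) and with library totals (-0.62). PRR7 (-0.99), GI (0.40) and ELF3 (0.38), other clock genes, were not called; PRR7 was called without captured library 2 (-1.08) or mRNA library 1 (-1.03). Of 13 jasmonate and defence genes 1 was lower, PDF1.2, a defensin (-2.84 ± 0.40), and the receptor gene COI1 was at 0.88 ± 0.12 and not called. COI1 (1.05) and LOX2 (1.07) were called without mRNA library 1, and VSP2, at -1.07, with the replicate block (-1.03). With library totals the jasmonate median turned from -0.20 to 0.45, and 6 clock genes were higher and 0 lower (clock median 0.86). Of 13 genes commonly used as references, 2 were higher and 0 lower (median 0.47). AT1G07940, an elongation factor gene with near-identical copies AT1G07920 and AT1G07930, had 583, 600 and 527 CPM against 196, 191 and 202 CPM (1.54 ± 0.08). ACT7, an actin, had 676, 650 and 639 CPM against 325, 316 and 332 CPM (1.01 ± 0.07), at the fold threshold, and its call ended without captured library 1 (1.00) and with length and GC adjustment (0.82). With library totals 7 of the 13 were higher.

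**Figure D5:**
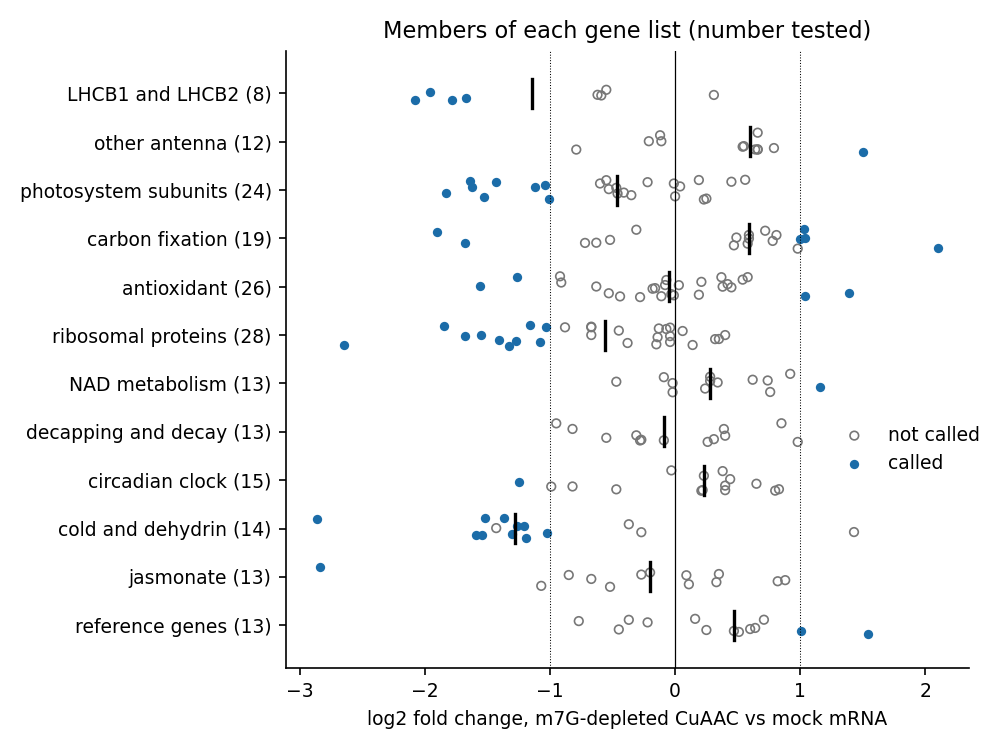
Log2 fold change of m7G-depleted CuAAC over mock mRNA for each tested member of the gene lists; filled points were called, open points were not, and black bars are list medians. The cold and dehydration list has its median at -1.28 and the major antenna list at -1.15, while carbon fixation and the other antenna proteins lie at 0.59.

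Markers of organs were read as a check on tissue makeup. The 4 shoot markers summed to 22475 to 24017 CPM in the captured and 21448 to 22766 CPM in the mRNA libraries, and 0 of them were called. Within that sum RCA was at 0.98, RBCS1A at -0.52 and LHCB3 at -0.21. The 6 root markers summed to 1173 to 1356 CPM against 1411 to 1482 CPM, lower in every captured library. With library totals the median fold changes of these lists turned from -0.26 to 0.36 (shoot) and from -0.16 to 0.47 (root). CASP1, a protein of the root endodermis, had 2.74, 1.84 and 2.52 CPM against 23.4, 14.2 and 18.5 CPM. It was the only root marker called, and it overlaps another gene. The root marker AT5G47450 (0.90) lay on the other side and SCR was at -0.95, both uncalled. AT5G47450 was called higher without captured library 1 (1.10) or mRNA library 3 (1.04), with library totals (1.54) and with length and GC adjustment (1.16). SCR was called lower without captured library 1 (-1.02) or 2 (-1.01) and with that adjustment (-1.12). The groups also differed in capture and m7G depletion, so these steps, cell numbers and RNA per cell cannot be told apart in whole seedlings. Of 6 seed and flower markers 3 had a count, summing to 2.14 to 3.44 CPM against 3.82 to 4.74 CPM, and SESA1, AP3 and AG were at 0 in all 6 libraries. The part of tissue makeup in the results was not tested.

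The order of the most abundant nuclear messages differed between the m7G-depleted CuAAC and the mRNA libraries. Per kb of transcript, CAB1 stood first in both groups, at 30743 ± 942 CPM in the captured and 24828 ± 2988 CPM in the mRNA libraries (SD, n = 3). LHCA4 was at 14785 ± 959 in the captured and 5244 ± 390 in the mRNA libraries, while LHB1B2 was at 5663 ± 439 and 19438 ± 2656. PSBR was at 3493 ± 236 and 10082 ± 1039. MT1A, a metallothionein that binds metal ions, was among the 5 most abundant messages per kb of the mRNA libraries. It had 106, 94.1 and 111 CPM in the captured and 1160, 797 and 1014 CPM in the mRNA libraries (-3.25 ± 0.25), and it is near-identical to AT5G56795. MT1A, with a summed exon length of 138 nt, and PSBR overlap other genes.

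The last comparison set the m7G-depleted CuAAC libraries against the m7G-depleted SPAAC libraries, which differ in the click reaction. Here 192 genes were higher (0.895%) and 1566 lower (7.30%) in CuAAC, 8.19% in all. For depleted SPAAC against the same mRNA libraries, 24.7% of genes were called. AT5G55660 had a mean of 15.7 CPM in depleted SPAAC, and CuAAC lay below it by 3.25 on the log2 scale. AT5G40450 changed by -2.52 and AT1G80930 by -1.90. Nuclear rRNA held 3.35 ± 0.186% of CuAAC and 1.32% of SPAAC counts after depletion, and chloroplast genes 1.75 ± 0.331% and 0.704%. Length went with this difference too, with a median of 0.44 at 501 to 1000 nt and -1.08 over 5000 nt. Among the named genes that fell between depleted and mock CuAAC, UPI, a serine protease inhibitor, had 2.74, 3.21 and 3.31 CPM after depletion, a mean of 13.8 CPM in mock CuAAC and 16.8, 19.8 and 19.2 CPM in mRNA. It fell against mock capture by 2.16 on the log2 scale.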

How the data were processed

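The deposited files hold, per the file headers, an unnormalized whole-number count and a summed exon length for each of 37361 genes. STAR 2.7.3a, featureCounts 2.0.0 and DESeq2 appear in the submitters' processing notes, with no step tied to a tool. The authors' genome build is not stated in these sources; 37065 identifiers (99.2%) matched the RefSeq annotation of TAIR10.1 and 99.5% of those had the same exon length, so symbols, coordinates, exon numbers, GC content and start-site sequences were read from it. Of 2387 overlapping opposite-strand pairs with at least 100 counts each, 58 had identical counts in all 6 libraries, so values of overlapping genes are uncertain. Copies were found with BLAST 2.17.0 at 95% identity or more, over at least 100 nt.

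Counts were tested with edgeR 4.0.16 in R 4.3.3 (robust quasi-likelihood fit, TMM factors, filterByExpr) over all 15 libraries by group, and p-values were adjusted over the 21456 genes tested. The common biological coefficient of variation was 12.3%. A call needed an adjusted p under 0.05 and a fold of 2. Read shares were compared by exact permutation (Python 3.11.15, scipy 1.17.1), and SDs rest on 3 libraries a group. The SEs of fold changes draw on the spread within groups over all 15 libraries. Alternatives used DESeq2 1.42.0, other scalings and filters, glmTreat, offsets for length and GC content, a replicate block and single libraries left out. The code was tested on simulated counts.

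Replicate numbers pair the libraries: deviations from group means correlated at 0.51, 0.47 and 0.20 for equal numbers, across 10920 genes, in addition to the shared numbers in the labels. Unequal numbers gave -0.45 to -0.06, but deviations within a group sum to 0, so those negative values follow from the positive ones. The main fit and the permutation test did not use this pairing. The replicate block did, and gave 1214 higher and 2826 lower genes against mRNA. Whether the replicates were grown separately is not said in the labels, so each p-value reflects the spread among these libraries alone, and that spread may be technical.

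The members, lists, tests and alternatives were chosen with earlier results of these data known. Named genes follow one rule. It takes the 8 highest and 8 lowest called nuclear protein-coding genes that overlap no other gene, and the 4 highest and 4 lowest of any class, at a mean of at least 10 CPM and with no overlap between the compared libraries. It adds the up to 3 most changed called genes of each list, or else the one with the smallest adjusted p, and for chloroplast, mitochondrial and very long transcripts (at least 7000 nt) the 3 largest changes and the 2 nearest to 0. Last, it takes the 4 highest and 4 lowest called genes between depleted and mock CuAAC, and the 5 most abundant nuclear protein-coding genes per kb in each group. Other genes were named as list members, after their values were seen.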

Additional observations from a re-analysis of the deposited data

Results flagged for a closer look

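Of all tested genes, 14.6% were called between m7G-depleted and mock-depleted CuAAC. The naming rule took some genes by rank in this contrast, and others as organelle or very long transcripts. The share among named genes is therefore set in part by that choice. The difference was called for 44 of the 74 named genes. In 8 of them the estimates against the same mRNA libraries also had opposite signs after depletion and in mock capture, which is why they are listed here; for most of them one of the 2 estimates was not distinguishable from mRNA. Values are log2, with the difference of depleted minus mock first and the values against mRNA after depletion and in mock capture next. The estimate was negative after depletion and positive in mock capture for TRX5 (-1.75, from -1.56 and 0.19), ELF4 (-1.51, from -1.25 and 0.26), AT1G67860, an uncharacterized protein (-2.23, from -1.71 and 0.52), AT1G27330, a RAMP4 protein of the endoplasmic reticulum (-2.19, from -2.08 and 0.12), and AT4G37240 (-2.17, from -1.58 and 0.60). It was positive after depletion and negative in mock capture for NADK2 (1.13, from 0.92 and -0.21), VCS (1.21, from 0.98 and -0.23) and ATMG00285 (2.22, from 0.22 after depletion and a negative value in mock capture). The 8 were taken from the called differences, so all pass edgeR's quasi-likelihood test by selection. The largest adjusted p was 9.53e-04, for ELF4. AT1G67860, AT1G27330 and AT4G37240 were also named by their rank in this contrast. Against mRNA, the mock estimates had adjusted p values of 0.242 (TRX5), 0.490 (ELF4), 0.580 (AT1G27330), 0.0897 (NADK2) and 0.0528 (VCS), and the depleted estimate of ATMG00285 one of 0.399, with overlapping groups.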

How the results depend on the processing

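No called gene named by the rule and no read share changed sign, but with library totals the balance of counts against mRNA turned from mostly lower to mostly higher. DESeq2, TMM from nuclear protein-coding genes, the compared groups alone and the replicate block (1214 higher and 2826 lower against mRNA) kept all 74 named genes on their side of the threshold. Calls did change elsewhere. Among the listed genes RAB18 gained one with DESeq2, and COR15B and AT3G60750 lost theirs with the compared groups alone. With the block RAB18, DREB1A and VSP2 gained one. Chloroplast genes went from 109 to 111 lower and mitochondrial genes from 22 to 23 higher with the block. Counts against mRNA moved to 258 higher and 1152 lower when the fold of 2 was tested itself (glmTreat), and to 5723 higher and 1067 lower with library totals. Between depleted and mock CuAAC they moved to 333 and 309 with glmTreat and to 686 and 794 with length and GC offsets. Between CuAAC and SPAAC after depletion they moved to 17 and 386 with glmTreat and to 87 and 926 with the offsets, and the higher count to 113 with library totals. Leaving out single libraries gave 1128 to 1367 higher and 2420 to 2702 lower against mRNA, 1202 to 1552 and 1603 to 1821 against mock CuAAC, and 197 to 263 and 1506 to 1794 against SPAAC. With the 20 most abundant genes left out, the share differences were 13.3 (nuclear protein-coding), -10.0 (chloroplast), -3.19 (mitochondrial), -0.0570 (rRNA) and -0.0140 (other nuclear) percentage points, by construction of that setting; single libraries left out gave 29.7 to 33.5, -6.41 to -5.52, -1.89 to -1.79, -25.8 to -21.1 and -0.399 to -0.279. Of the named genes, 13 lost and 5 gained a call with library totals, 9 lost one with glmTreat, and 7 lost and 1 gained one with the offsets; the cause was not tested. Calls lost with library totals were those of PSBTN, PSBR, TRX5, TRX3, COR15A, COR47, ERD10, ELF4, SEP3, ATCG00610, AT4G36080, AT2G01010 and AT4G37240. Calls lost with the offsets were those of PSAE-2, TRX3, ELF4, ACT7, SEP3, ATCG00610 and AT4G36080, and VCS gained one (1.06). Without mRNA library 1 NADK2, COI1, VCS and RCA gained a call, and without captured library 2 ATCG00650 (-1.10) did. Calls of tested list members that turn on single libraries stand beside their lists. The smallest library held 3806556 counts, which limits what can be seen in genes of low level.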
